A study of Mus musculus with 4 samples.

Results

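The genes Zic1, Zic2, Zic4 and Zic5 of the Zic transcription factor family were followed in murine embryonic stem cells (CM7/1) on 4 single-colour expression arrays. Members were all probe sets whose single gene symbol in the platform annotation was one of these names, which gave 8 probe sets of 34958 with a single symbol, for 4 genes of 18194. Zic5 had 3 probe sets, Zic1 and Zic4 had 2 each and Zic2 had 1. The labels give all cells an overexpressed factor, either Hey1 or Hey2, which are basic helix-loop-helix repressors that act downstream of Notch receptors. Cells with either factor (the Hey1 line and the Hey2 line below) were measured once as the control and once after 1000 ng/ml doxycycline for 48 h. The 4 groups of 1 array each are Hey1 uninduced, Hey1 labelled induced, Hey2 uninduced and Hey2 labelled induced. The series has no replicates, and no array of cells without an introduced factor was used here, so the introduced factor and doxycycline itself cannot be told apart. The family was chosen with the differences between these arrays in view, so its values are given as a description and without a test.

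The label of induction was not borne out by the probe sets of the introduced genes. The Hey1 probe set read 6.73 in the uninduced and 6.51 in the labelled induced array of the Hey1 line on the log2 scale of the deposited values, and the Hey2 probe set read 4.25 and 4.34 in the Hey2 line. The sources used here do not state if these probe sets detect the introduced transcripts, so each direction below is named after the label of induction alone. The label of embryonic stem cells did match its markers: all 10 listed markers lay above the median of all values, 6.05, and their mean log2 value was between 12.8 and 12.9 in each array. Of 8 fibroblast markers 2 reached that median in any array, as did 1 of 6 endoderm, 3 of 5 mesoderm, 1 of 4 trophoblast and 5 of 7 neuroectoderm and neuron markers. With 4 arrays in all, the precision of every value is limited by their number.

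Zic genes encode C2H2 zinc finger transcription factors whose fingers resemble those of the Gli proteins, the effectors of Hedgehog signalling. They act in the early neural plate, the dorsal neural tube, the neural crest and the cerebellum, and Zic2 is also expressed in embryonic stem cells and the epiblast. Loss of ZIC2 function is a known cause of holoprosencephaly, a failure of the forebrain to divide. In mammals the genes lie in divergent pairs, Zic1 beside Zic4 (chromosome 9 in the mouse) and Zic2 beside Zic5 (chromosome 14), and the results are given pair by pair.

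Hey proteins bind the E-box CACGTG and the related site CACGCG, so the start-site windows of the family are shown with these letters in capitals. Each window is 300 bases, from 250 before to 50 after the gene's start, read 5′ to 3′ on the gene's strand, from the RefSeq promoter table of the mouse assembly GRCm38.p6. The table matched 3 members, and no window was used for Zic2, so nothing is said here of its letters. The windows are chr14:122465609-122465908 on the minus strand for Zic5, chr9:91365719-91366018 on the minus strand for Zic1 and chr9:91368722-91369021 on the plus strand for Zic4.
Zic5: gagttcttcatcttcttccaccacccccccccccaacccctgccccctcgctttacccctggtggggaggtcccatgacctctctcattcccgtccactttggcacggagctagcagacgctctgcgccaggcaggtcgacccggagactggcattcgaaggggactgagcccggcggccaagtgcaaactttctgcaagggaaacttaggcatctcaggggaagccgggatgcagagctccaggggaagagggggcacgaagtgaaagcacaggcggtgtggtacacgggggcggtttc
Zic1: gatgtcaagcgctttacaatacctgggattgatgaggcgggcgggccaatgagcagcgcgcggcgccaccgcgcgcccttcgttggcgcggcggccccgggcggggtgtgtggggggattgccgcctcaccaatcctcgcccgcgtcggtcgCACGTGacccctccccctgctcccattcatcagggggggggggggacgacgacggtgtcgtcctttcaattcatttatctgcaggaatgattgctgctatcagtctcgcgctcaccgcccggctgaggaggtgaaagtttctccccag
Zic4: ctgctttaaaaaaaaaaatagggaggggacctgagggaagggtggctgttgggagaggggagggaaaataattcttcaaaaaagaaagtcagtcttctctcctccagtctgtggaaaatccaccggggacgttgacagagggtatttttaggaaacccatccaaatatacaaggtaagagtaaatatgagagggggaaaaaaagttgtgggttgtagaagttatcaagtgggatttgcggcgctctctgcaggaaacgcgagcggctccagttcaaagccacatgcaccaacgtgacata
The Zic1 window held 1 CACGTG, whose first base lies 98 bases before the start, and the Zic5 and Zic4 windows held 0 matches to either word on either strand. Of 32851 promoter windows of this length, 7.15% held CACGTG, 9.27% held CACGCG and 15.4% held at least 1 of them. The general E-box CANNTG, which includes CACGTG, was found in 72.3% of the windows and in all 3 shown here, with 1 match in Zic5, 1 in Zic1 and 2 in Zic4. The Zic1 and Zic5 windows were rich in CpG, with 31 and 15 CpG dinucleotides, the Zic4 window had 8, and the median over all windows was 7. A match describes the letters of the window and not binding.

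Zic2 and Zic5 were lower in the array labelled induced than in the uninduced array of both lines, whereas Zic1 and Zic4 read low in every array. Of the 4 genes, 2 passed the filter of a highest value of at least 6.05 and were among the 12098 genes compared. Zic2 passed through 1 array, the uninduced Hey1 array, and Zic5 through 3 of its 4 arrays, so both had to be higher somewhere to be compared. Both reached a 2-fold lower value in each line, beside 0.0331% of the genes compared within the Hey1 line and 0.24% within the Hey2 line. The members were chosen on these differences, and nothing is read from those shares.

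Zic2, the member with a known role in forebrain division, read 7.29 in the uninduced and 5.70 in the labelled induced array of the Hey1 line. It read 5.64 in the uninduced and 4.59 in the labelled induced array of the Hey2 line. The uninduced Hey1 array stood alone above the median of all values, the Hey1 labelled induced and Hey2 uninduced arrays were nearly level, and the Hey2 labelled induced array was lowest. The log2 difference was -1.59 in the Hey1 line, a 3.02-fold lower value and the lowest of all genes compared, and -1.06 in the Hey2 line, a 2.08-fold lower value and the 24th lowest. In the Hey2 line both readings were under the filter on level, which leaves the size of that difference uncertain, and with an offset of 32 on the linear scale it was -0.55, short of 2-fold. The Hey1-line difference with that offset was -1.17. With cyclic loess the Hey2-line difference was -0.99, also short of 2-fold.

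Zic5, the neighbour of Zic2 and a factor of neural crest and neural tube development, was measured by 3 probe sets. The probe set with the highest mean, 1456219_at, read 9.33 and 8.28 in the uninduced and labelled induced arrays of the Hey1 line and 7.97 and 6.05 in those of the Hey2 line. As for Zic2, the uninduced Hey1 array was highest and the Hey2 labelled induced array lowest. Its difference was -1.05 in the Hey1 line (2.07-fold lower, the 4th lowest of all genes compared) and -1.92 in the Hey2 line (3.79-fold lower, the lowest of all genes compared). The probe set 1456140_at read 8.80 and 7.54 within the Hey1 line and 7.53 and 5.64 within the Hey2 line, with differences of -1.26 and -1.89. The third, 1425666_at, read 6.93 and 6.11 within the Hey1 line and 6.30 and 4.93 within the Hey2 line, with differences of -0.82 and -1.37. All 3 probe sets were lower in the labelled induced array of both lines, 1425666_at by less than 2-fold in the Hey1 line. Each read below the median of all values in the Hey2 labelled induced array, 1456219_at only just, and above it in the other 3 arrays. In bulk RNA, fewer cells with the transcript and less transcript per cell cannot be told apart.

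**Figure D1:**
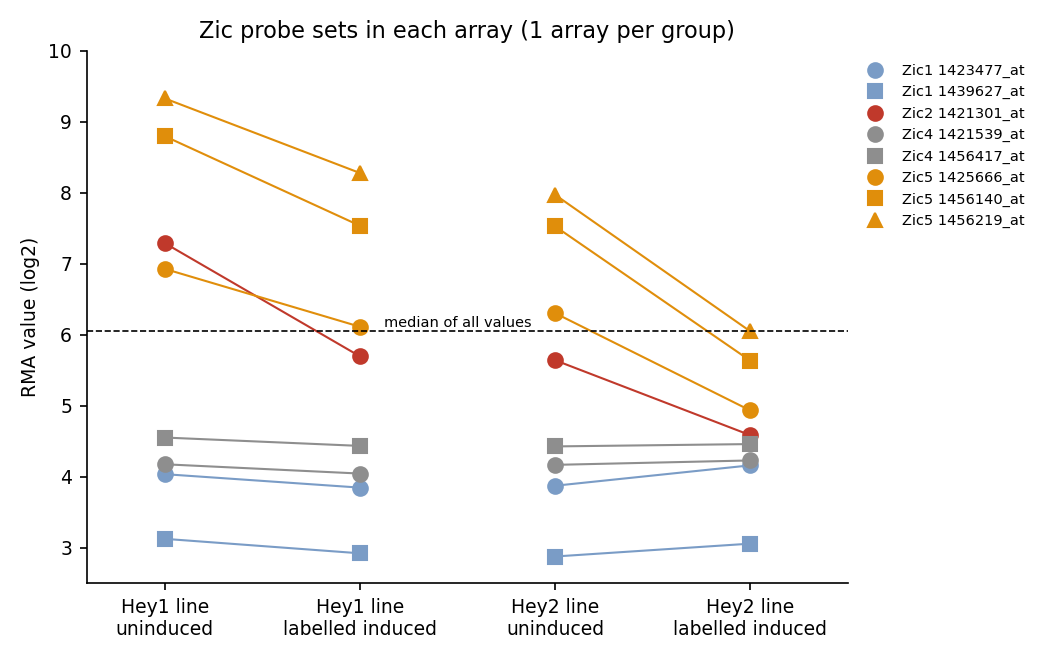
Deposited log2 values of the 8 Zic probe sets (points) in the 4 arrays, 1 array per group, with lines joining the arrays of a line and the dashed line at 6.05, the median of all values. The 4 probe sets of Zic2 and Zic5 are highest in the uninduced Hey1 array and lowest in the Hey2 labelled induced array, and the 4 of Zic1 and Zic4 stay between 2.88 and 4.55.

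Zic1, a factor of the dorsal neural tube and cerebellum, read between 3.85 and 4.16 over the 4 arrays at the probe set 1423477_at and between 2.88 and 3.12 at 1439627_at. In the Hey1 line the uninduced and labelled induced values were 4.04 and 3.85 for the former and 3.12 and 2.92 for the latter. In the Hey2 line they were 3.87 and 4.16, and 2.88 and 3.06. Zic4, its neighbour and also a gene of cerebellar development, read 4.17, 4.04, 4.17 and 4.23 at 1421539_at and 4.55, 4.43, 4.43 and 4.46 at 1456417_at, in the order Hey1 uninduced, Hey1 labelled induced, Hey2 uninduced and Hey2 labelled induced. All 16 values of the pair lay below 4.60, the lower quartile of all values on the arrays. The widest span of a probe set over the 4 arrays was 0.31, for Zic1, against 2.70 for Zic2 and 1.99 to 3.28 for Zic5. The differences of the pair ran from -0.20 to -0.12 within the Hey1 line and from 0.033 to 0.29 within the Hey2 line, and for each gene its 2 probe sets had the same sign. At this level, below the filter, such differences have no readable size, and no direction is drawn from them.

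The comparison of each line's difference with that between the uninduced arrays showed a gap between the lines of the same order. Zic2 was lower in the uninduced Hey2 array than in the uninduced Hey1 array, with a log2 difference of -1.65, beside its differences of -1.59 within the Hey1 line and -1.06 within the Hey2 line. For Zic5 the gap was -1.36 at 1456219_at, -1.27 at 1456140_at and -0.62 at 1425666_at. Of the genes compared, 1.13% reached a 2-fold lower value in the uninduced Hey2 array, and Zic2 and Zic5 were the 31st and 53rd lowest. The gap between uninduced arrays was thus close to the Hey1-line difference for Zic2 and all 3 Zic5 probe sets, within the spread over genes given below, and was smaller than the Hey2-line difference for all 3 Zic5 probe sets. The Hey1-line difference and the gap both use the uninduced Hey1 array, and the Hey2-line difference and the gap both use the uninduced Hey2 array, so these values are not independent of each other. The differences within the 2 lines share no array. Among markers of other cell types, Thy1, a surface protein gene of fibroblasts and neurons, was also lower in the uninduced Hey2 array (5.51 against 7.13), but in the labelled induced arrays it was higher, by 0.67 (Hey1 line) and 0.22 (Hey2 line). Col1a2, the other fibroblast marker that reached the median of all values, was higher in the uninduced Hey2 array (6.27 against 6.04). Its differences were 0.092 (Hey1 line) and -0.38 (Hey2 line). The mean log2 value of the 8 fibroblast markers was 5.28 and 5.40 in the uninduced and labelled induced Hey1 arrays and 5.20 and 5.14 in those of the Hey2 line, and their part in the Zic differences was not tested.

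Ordered by level, Zic2 and all 3 probe sets of Zic5 had the uninduced Hey1 array first and the Hey2 labelled induced array last. The arrays between them did not separate: Hey1 labelled induced minus Hey2 uninduced was 0.055 for Zic2 and 0.31, 0.0080 and -0.19 for 1456219_at, 1456140_at and 1425666_at. The scaled median absolute deviation of that difference over all genes compared was 0.33, larger than any of these. The same spread was 0.16 within the Hey1 line, 0.22 within the Hey2 line and 0.29 between the uninduced arrays. With the uninduced Hey2 array as its reference, the Hey1 labelled induced array therefore showed Zic2 and Zic5 (1456219_at) higher by 0.055 and 0.31, where the array of its own line showed them lower.

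With doxycycline the gap between the lines had the same direction as without. Zic2 was lower in the Hey2 labelled induced array than in the Hey1 labelled induced array, with a log2 difference of -1.11, and the 3 probe sets of Zic5 had -2.23, -1.90 and -1.18. Of the genes compared, 0.835% reached a 2-fold lower value here, and Zic5 was the 14th and Zic2 the 79th lowest. For Zic5 at 1456219_at the gap between the lines was larger with doxycycline (-2.23) than without (-1.36), and for Zic2 it was smaller (-1.11 against -1.65). With 1 array in each group these differences of differences have no test, and the Zic2 value with doxycycline ends near the lower quartile of all values.

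**Figure D2:**
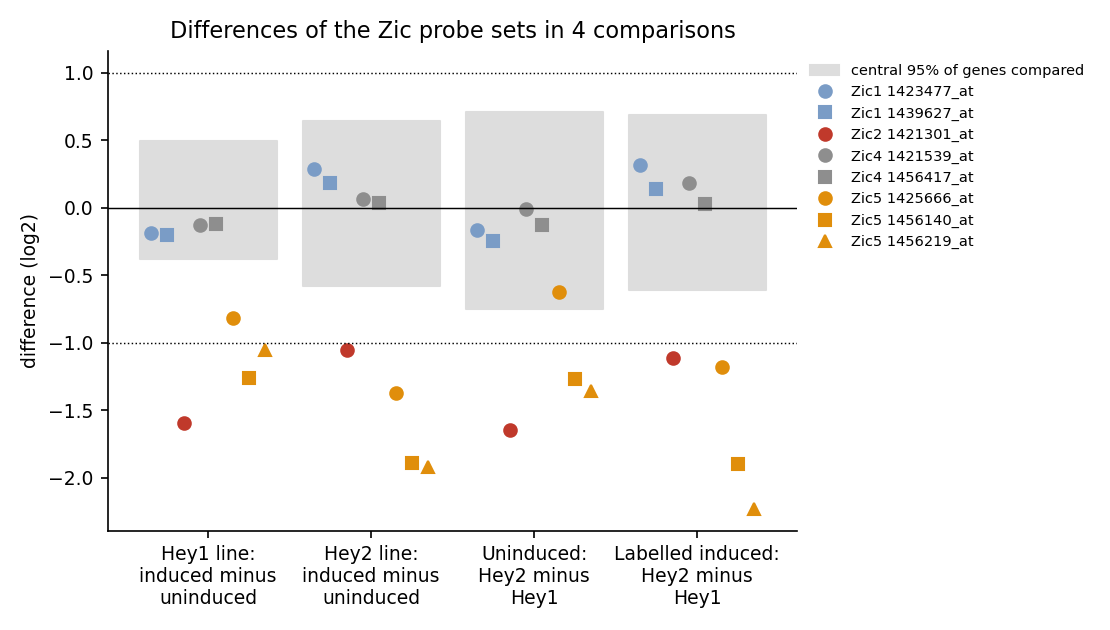
Log2 differences of the 8 Zic probe sets (points) in 4 comparisons of 2 arrays, with grey bars for the central 95% of the 12098 genes compared and dotted lines at 2-fold. Zic2 and Zic5 lie below the grey bars in every comparison except Zic5 1425666_at between the uninduced arrays (-0.62), and Zic1 and Zic4 lie within them.

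**Figure D3:**
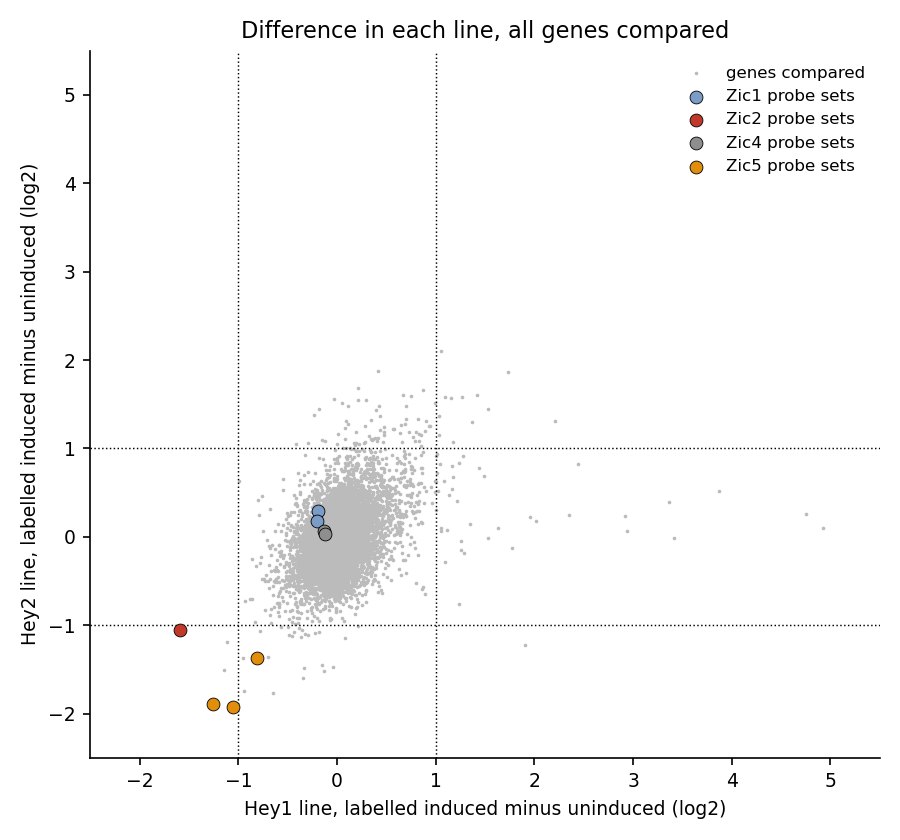
Log2 difference in the Hey1 line (x axis) and the Hey2 line (y axis) for each of the 12098 genes compared (grey) and the 8 Zic probe sets (coloured, including Zic1 and Zic4, which did not pass the level filter), with dotted lines at 2-fold. Zic2 and 2 of the 3 Zic5 probe sets lie past 2-fold on the lower side of both axes.

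The genes around the 2 pairs were also read, as the 3 nearest protein-coding genes on either side of each pair in RefSeq. Of the 6 neighbours of the Zic2 and Zic5 pair, 5 were compared, and 0 of these were past 2-fold in either line. Over all genes 0.0331% were 2-fold lower and 0.438% higher in the Hey1 line, and 0.24% and 0.686% in the Hey2 line, so few such calls would be found among any 5 genes. Pcca and Clybl, the mitochondrial enzyme genes on either side, had differences of -0.067 and -0.18 within the Hey1 line and 0.079 and -0.092 within the Hey2 line. Tm9sf2 had -0.063 and 0.018, and Ggact had -0.22 and -0.14. Timm8a2 was higher, by 0.12 and 0.74, with both Hey2-line values (4.26 and 4.99) below the level filter. For the uninduced arrays, Hey2 minus Hey1 was -2.05 for Timm8a2, -0.56 for Ggact, 0.57 for Clybl, -0.0093 for Pcca and 0.0044 for Tm9sf2. The transcript 2610035F20Rik, which lies between Zic5 and Zic2 in RefSeq and was added after its values were seen, read between 3.78 and 3.94 in the 4 arrays, below the filter. Of the 6 neighbours of the Zic1 and Zic4 pair, 3 were compared: Tbc1d2b (-0.022 and 0.65), Adamts7 (0.014 and -0.26) and Plscr1, a phospholipid scramblase gene (0.35 and -0.078).

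Genes whose profile over the 4 arrays was most like that of Zic2 or Zic5 were found by the root mean square difference of the log2 values after each gene's own mean was subtracted. For Zic2 the nearest were Lrrc31 (0.29), the neural transcription factor gene Sox1 (0.30), Cnpy1 (0.36), Vax2os (0.40) and Tmem40 (0.40), and Zic5 itself lay at 0.42. For Zic5 they were the thyrotropin-releasing hormone gene Trh (0.18), Zic2 (0.42), Sox1 (0.42), Lrrc31 (0.49) and the semaphorin receptor gene Nrp2 (0.51). Trh read 11.80 and 11.15 within the Hey1 line and 10.76 and 8.99 within the Hey2 line, so its difference was smaller than that of Zic5 in the Hey1 line (-0.65) and close to it in the Hey2 line (-1.76). Sox1 read 8.14 and 7.35 within the Hey1 line and 7.05 and 5.98 within the Hey2 line, the same order of arrays as Zic5. The other Sox1 probe set did not share this: its differences were -0.0093 and -0.36, and it was higher by 0.21 in the uninduced Hey2 array. Lrrc31, with 1 probe set, had differences of -0.86 and -0.70. The likeness rests on 4 arrays, and a gene is near by this measure whenever it follows the same order with a similar span.

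**Figure D4:**
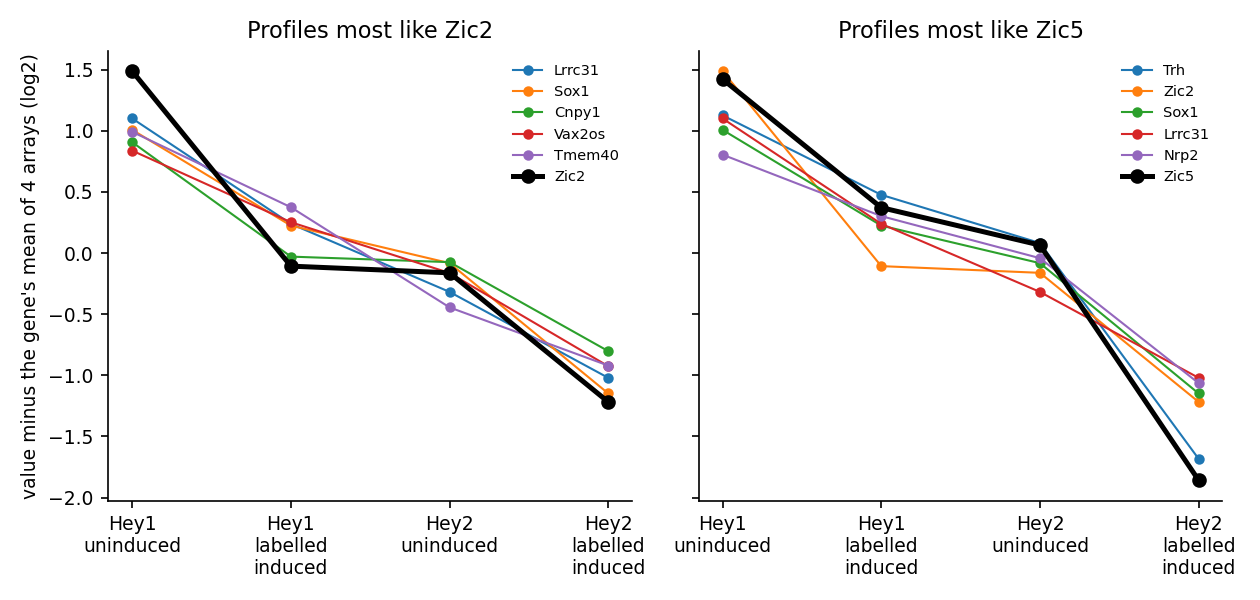
Log2 values minus each gene's mean over the 4 arrays for Zic2 (left, black) and Zic5 (right, black) and the 5 genes nearest to each (coloured), with lines only to guide the eye. All profiles are highest in the uninduced Hey1 array and lowest in the Hey2 labelled induced array, and Trh follows Zic5 most closely.

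The relatives and pathway of the Zic proteins were read from lists. Over all genes compared the median difference was -0.012 within the Hey1 line and -0.022 within the Hey2 line, with 53.1% and 54.3% of genes below 0. Of the 5 Gli and Glis genes compared, of 6 listed, 4 were below 0 within the Hey1 line and 5 within the Hey2 line, with medians of -0.23 and -0.40. None was at 2-fold, beside 0.0331% lower and 0.438% higher over all genes (Hey1 line) and 0.24% and 0.686% (Hey2 line). Gli1, an effector and target of Hedgehog signalling, read 8.90 and 8.67 within the Hey1 line and 9.79 and 9.20 within the Hey2 line, differences of -0.23 and -0.59. Gli2, the main activator of the pathway, had -0.28 and -0.45, and Gli3, its main repressor, had -0.35 and -0.20, with another Gli3 probe set at 0.078 in the Hey1 line. Unlike Zic2 and Zic5, Gli1 and Gli2 were higher in the uninduced Hey2 than in the uninduced Hey1 array, by 0.89 and 0.95. Against the uninduced array of the other line the list's medians became -0.61 within the Hey1 line and 0.31 within the Hey2 line.

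Of 17 Hedgehog pathway genes, 12 were compared, 10 of them below 0 within the Hey1 line and 8 within the Hey2 line, with medians of -0.14 and -0.16. In the Hey1 line 0 of them were past 2-fold in either direction, beside 0.0331% lower and 0.438% higher over all genes, and in the Hey2 line 1 was 2-fold lower, beside 0.24%. This was Ptch1, the Hedgehog receptor gene and a target of the pathway, which read 10.37 and 10.04 within the Hey1 line and 11.39 and 10.29 within the Hey2 line, differences of -0.33 and -1.10. Unlike Zic2 and Zic5, Ptch1 was higher in the uninduced Hey2 than in the uninduced Hey1 array, by 1.02. Over its 3 probe sets the differences closest to no change, taken separately in each line, were -0.18 and -0.45. The ligand gene Dhh had -0.20 and -0.65, and Gas1, a Hedgehog co-receptor gene, had -0.22 and -0.38. Other Gas1 probe sets reached up to 0.13 and 0.22, taken separately in each line. With probe sets averaged per gene, the Hey2-line median of the list was -0.0073.

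Among regulators of the neural plate and neural progenitors, 15 of 32 genes were compared. Of these, 8 were below 0 within the Hey1 line and 9 within the Hey2 line, with medians of -0.056 and -0.13. At the stricter level filter of the 75th percentile of all values these medians became -0.40 and -0.29. Sox1 (-0.78 and -1.07, values of its other probe set above) was 2-fold lower in the Hey2 line, beside 0.24% of the genes compared. The homeobox gene Meis2 was 2-fold higher in the Hey1 line, beside 0.438% of the genes compared, with differences of 1.00 and 0.63. Over its 3 probe sets above the level filter they ran from 0.54 to 1.00 in the Hey1 line and from 0.63 to 1.67 in the Hey2 line. Zfhx3 had -0.73 and -0.83, and its other probe set above the level filter had -1.02 and -1.04, past 2-fold in both lines. Unlike Zic2 and Zic5, Zfhx3 was higher in the uninduced Hey2 than in the uninduced Hey1 array, by 1.04. As a marker list, 5 of 7 neuroectoderm and neuron genes reached the filter. Besides Sox1 these were the progenitor genes Pax6 (-0.060 and -0.13) and Nes (0.17 and -0.45) and the neuronal cytoskeleton genes Tubb3 (-0.043 and -0.049) and Map2 (-0.046 and 0.22). On this list the mean log2 value of the 6 on the array was 7.20 and 7.12 within the Hey1 line and 7.14 and 6.84 within the Hey2 line. The part of neurally differentiating cells in the Zic2 and Zic5 differences was not tested.

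Of 18 neural crest regulators, 9 were compared, with medians of -0.034 and -0.13, and 6 and 5 of them were below 0. None was at 2-fold in either line, beside at most 0.686% of all genes in either direction. The Hey1-line median became -0.31 at the stricter level filter. Foxd3, a factor of both neural crest and pluripotent cells, had -0.68 and -0.13, and the AP-2 genes Tfap2a and Tfap2c were higher, by 0.83 and 0.51 and by 0.60 and 0.27. Of 19 genes linked to holoprosencephaly besides Zic2, 14 were compared, 8 below 0 in each line, with medians of -0.091 and -0.030. Ptch1 was the only 1 of these past 2-fold, in the Hey2 line, beside 0.24% lower and 0.686% higher over all genes, and the Notch ligand gene Dll1 had -0.20 and -0.73.

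Zic2 is described as working with the NuRD chromatin remodelling complex in embryonic stem cells. All 15 genes listed for NuRD and other described Zic partners were compared. Their medians were 0.012 and 0.036, and 7 and 6 were below 0. None was past 2-fold in either line, beside at most 0.686% of all genes in either direction. The methyl-CpG binding genes Mbd2 (0.20 and 0.26) and Mbd3 (-0.24 and -0.19) and the Zic-binding inhibitor family gene Mdfic (0.072 and 0.50) differed most. Between the uninduced arrays, Hey2 minus Hey1 was 0.58 for Mbd2, 0.30 for Mbd3 and -0.93 for Mdfic. Of 16 formative and primed epiblast genes, 14 were compared, with medians of 0.052 and 0.039, and 5 and 7 were below 0. The zinc finger gene Sall2 was 2-fold higher in the Hey2 line, beside 0.686% of the genes compared, with 0.69 and 1.28, and both its uninduced values (5.94 and 5.43) lay below the filter. The de novo DNA methyltransferase gene Dnmt3a was higher (0.76 and 0.72), and the forkhead gene Foxp1 was lower (-0.49 and -0.93). Between the uninduced arrays, Hey2 minus Hey1 was -0.029 for Dnmt3a and 0.77 for Foxp1.

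**Figure D5:**
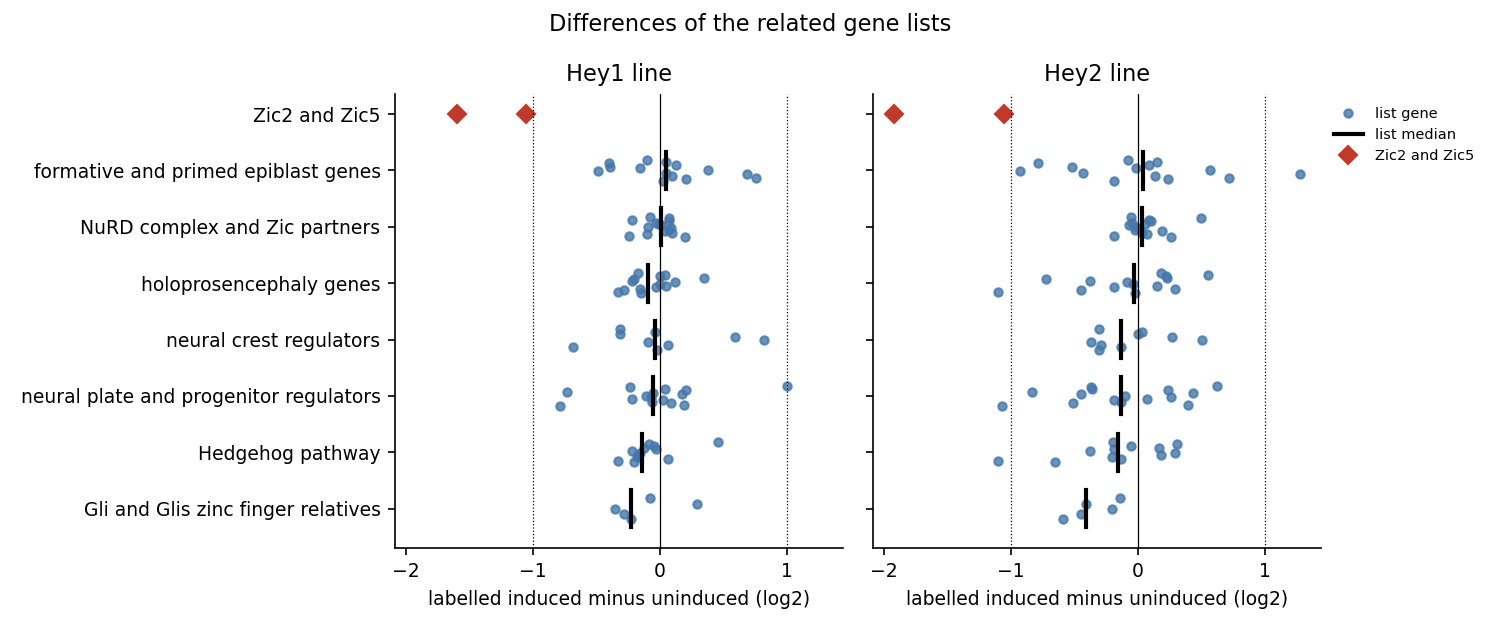
Log2 difference in the Hey1 line (left) and the Hey2 line (right) for each compared gene of 7 related lists (blue points, black bars for list medians) and for Zic2 and Zic5 (red), with dotted lines at 2-fold. Zic2 and Zic5 lie past 2-fold on the lower side in both lines, and every list median lies between -0.40 and 0.052.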

How the data were processed

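Biotin-labelled material from total RNA was hybridised to 1 single-colour Affymetrix array per group. The authors deposited log2 values, 1 per probe set, made with RMA per the submitters' processing notes. The sources used here do not state its version, the chip description file or the build. RMA includes quantile normalisation: sorted values of the 4 arrays differed by at most 0.0024, so a shift common to all genes is invisible here. Depth has no counterpart in these values.

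Of 45101 probe sets, 34958 had a single symbol in the platform annotation, 932 several and 9211 none, and 34754 of the single-symbol ones matched RefSeq by gene identifier. For each gene the probe set of highest mean was used, and the gene was compared if its highest value reached the median of all values. Differences are log2, fold changes are 2 to that power, and 2-fold was counted, with no test. Every member probe set was named, with Hey1, Hey2, the 5 most like genes of each compared member (without predicted genes and clone names), the 3 nearest genes per side, and from each list the genes past 2-fold in either line and the 3 with the largest mean difference. Thy1, Col1a2, the neuroectoderm markers and the gene between Zic5 and Zic2 were added after their values were seen. The members and lists were chosen with earlier results of these data known. Python 3.11.15, numpy 2.4.6, pandas 2.3.3 and matplotlib 3.10.9 were used, and limma 3.58.1 in R 4.3.3 for cyclic loess. The code of the counting and of the profile search was run on simulated data with planted differences well past 2-fold and a planted copy of the Zic2 profile. This checks the code and not the precision of these arrays. The alternatives were a filter at the 75th percentile (8.31) or none, cyclic loess, median centring, an offset of 32, the mean of probe sets, every probe set, and the other line's uninduced array as reference.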

Additional observations from a re-analysis of the deposited data

Results flagged for a closer look

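The Zic1 and Zic4 probe sets had differences of opposite sign in the 2 lines. They were -0.19 within the Hey1 line and 0.29 within the Hey2 line for Zic1 at 1423477_at, and -0.20 and 0.18 at 1439627_at. For Zic4 they were -0.13 and 0.062 at 1421539_at, and -0.12 and 0.033 at 1456417_at. Each line has 1 array per condition, the difference between the lines was not tested, and all these values lie below the level filter.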

How the results depend on the processing

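Of 88 alternative values for the members, 70 moved by less than the scaled median absolute deviation of that comparison over all genes, and Zic2 and Zic5 kept their direction in each comparison except against the other line's uninduced array. There the Hey1-line differences turned to 0.055 for Zic2 and 0.31 for Zic5, that of Zic1 became -0.026, and the Hey2-line differences became -2.70 for Zic2 and -3.28 for Zic5. With the offset of 32, Zic2 had -1.17 (Hey1 line), -0.55 (Hey2 line), -1.20 (uninduced arrays) and -0.58 (labelled induced arrays), and Zic5 had -1.53 in the Hey2 line and -1.80 between the labelled induced arrays. With the mean of probe sets, Zic5 had -1.77 between the labelled induced arrays. At 1425666_at Zic5 had -0.82, -1.37, -0.62 and -1.18 in the same 4 comparisons, and at 1456140_at -1.26 in the Hey1 line and -1.90 between the labelled induced arrays. Cyclic loess moved no member by that much, but the Hey2-line difference of Zic2 became -0.99, just short of 2-fold. Median centring changes nothing in arrays that share a distribution.

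Counts of genes past 2-fold moved more, from main values of 4 lower and 53 higher within the Hey1 line, 29 and 83 within the Hey2 line, 137 and 100 between the uninduced arrays and 101 and 94 between the labelled induced arrays. At the 75th percentile filter, which Zic2 did not pass, the Hey1 line had 21 higher, the Hey2 line 18 lower and 28 higher, the uninduced arrays 61 and 63, and the labelled induced arrays 44 and 51. With the offset these were 30 higher, 17 and 35, 78 and 61, and 59 and 58. With every probe set the Hey1 line had 9 lower, the Hey2 line 173 higher, the uninduced arrays 260 and 158, and the labelled induced arrays 155 and 147. With the mean of probe sets there were 55 higher in the Hey2 line, 63 between the uninduced and 50 between the labelled induced arrays. Against the other line's uninduced array there were 135 lower and 252 higher within the Hey1 line, and 94 and 135 within the Hey2 line. Of 112 list medians, 99 moved by at most 0.1, and the neural plate and neural crest lists moved at the 75th percentile filter as given above. With every probe set, the Hey2-line median became 0.0034 for neural crest and 0.077 for holoprosencephaly genes. Against the other line's uninduced array, the neural crest medians became -0.20 (Hey1 line) and -0.016 (Hey2 line). The Hey1-line medians there became -0.088 for NuRD and other Zic partners and -0.050 for epiblast genes. Without a level filter, the Hey2-line Gli and Glis median was -0.30. The causes were not tested beyond what each setting does by construction. No paired analysis was possible because each group has 1 array and the labels carry no replicate numbers. Values near the array's lower quartile limit what can be read for Zic1, Zic4 and the Hey2-line values of Zic2.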
